A study of Homo sapiens with 6 samples.

Results

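Autophagy encloses cytoplasm in a double membrane and delivers it to the lysosome, and mitophagy is the branch that removes mitochondria. The data describe the mRNAs of 44 core genes of these processes in MDA-MB-231 cells, a human triple-negative breast cancer line, with and without knockdown of PUS1, the pseudouridine synthase that was the target of the study. The genes were taken from the table by gene symbol, from a list of names. All 44 were among the 60605 genes of the expression table, and all 44 passed the filter on low counts that left 14748 genes to test. The shControl group carried a control hairpin and the shPUS1 group a hairpin against PUS1. Both hairpins were delivered by lentivirus. The methods give a puromycin-resistant pLKO.1 vector for the PUS1 hairpins and puromycin selection after infection, and do not name the vector of the control hairpin. Each group had 3 libraries of poly(A) RNA, labelled as biological replicates, with nothing in the labels on whether they came from separate infections. Which of the 3 designed PUS1 hairpins the sequenced cells carried is not stated, although the table gives all 3 knockdown libraries the number 2 in their names, whose meaning it does not explain.

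The steps of autophagy are carried out by distinct protein groups. The ULK1 kinase complex starts the process, and a class III PI3-kinase complex marks the growing membrane, the phagophore, with the lipid PI3P. WIPI proteins read this lipid, while ATG2 and ATG9 proteins supply membrane lipid. Ubiquitin-like conjugation then attaches ATG8 proteins (the LC3 and GABARAP families) to the membrane, cargo receptors bridge cargo to ATG8, and adaptors such as PLEKHM1 bring the finished vesicle to the lysosome. Mitochondria are recognised either by receptors resident in their outer membrane, such as BNIP3, or after the kinase PINK1 accumulates on damaged mitochondria and ubiquitin is placed on outer-membrane proteins. Several of these mRNAs are known to respond to hypoxia or nutrient stress, and ATG8 proteins and SQSTM1 are themselves consumed by the process, so an mRNA level is no measure of autophagic flux.

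Library totals lay between 14241505 and 19625998 estimated counts. PUS1 mRNA was 14.5, 27.5 and 12.1 CPM (counts scaled to the library size after TMM normalisation) in shControl replicates 1, 2 and 3, and 6.57, 5.47 and 5.37 CPM in the shPUS1 replicates. The groups did not overlap, and the log2 fold change (shPUS1 over shControl throughout) was -1.62 with a standard error (SE) of 0.32 (adjusted p = 0.0462, edgeR quasi-likelihood test with Benjamini-Hochberg adjustment over 14748 genes, as for every adjusted p here unless another tool is named). The PUS1 call was lost without shControl replicate 1 (adjusted p = 0.0905) or shPUS1 replicate 1, 2 or 3 (0.208, 0.253 and 0.192), and with limma on log2(FPKM + 1) or log2(FPKM + 0.1) (0.0544 and 0.0514), while the fitted value stayed below 0 in each of these. The call was also lost with the replicate number as a block. Of the 5 markers named for this line, all were at 36.6 FPKM (counts per kilobase of the gene's exonic length, scaled to library total) or more in every library. Of the genes named as low in it, ESR1 stayed at or below 0.04 FPKM, PGR at or below 0.01, CDH1 was at 0 to 0.18, GATA3 at 1.55 to 2.16, EPCAM at 2.21 to 3.12 and ERBB2 at 4.93 to 6.91. Of 5 markers of other cell types, PTPRC, CD3E, PECAM1 and ALB stayed at or below 0.46 FPKM, and the macrophage marker CD68 was at 27.8 to 42.6 FPKM in all 6 libraries. shControl replicate 2 stood apart. Its log2 CPM correlated with that of shControl replicates 1 and 3 at Pearson r of 0.9505 and 0.9521 across genes, against 0.981 for those 2 with each other and 0.9872 to 0.9906 among the shPUS1 libraries. Results are therefore given with and without it.

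Of the 44 genes, PINK1 and PLEKHM1 rose after PUS1 knockdown at an adjusted p under 0.05, and 0 fell. That is 4.55% of the genes in the higher direction, where 1.74% of all genes tested were called higher, and 0 in the lower direction, where 0.841% were called lower. With a log2 fold change of at least 1 also required, PLEKHM1 alone remained (0.881% of all genes higher and 0.475% lower). At an unadjusted p under 0.05, 10 of the 44 were higher and 3 lower, against 12.6% and 12.8% of all genes. DESeq2, run as an alternative, called 4 of the 44 higher (PINK1, PLEKHM1, ATG2A and UVRAG) and 2 lower (PHB2 and VDAC1), and by it 7.37% of the 13303 genes with an adjusted p were higher and 5.64% lower. In RNA from whole cultures, a smaller share of cells making an mRNA and less of it per cell cannot be told apart.

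Most fitted values were above 0 and small. The fitted log2 fold change was above 0 for 34 of 44 genes (77.3%, against 47.3% of all genes tested), with a median of 0.21 against -0.03 over all genes. For 20 genes (45.5%) every shPUS1 library was above every shControl library, a pattern that 18.8% of all genes tested showed. The opposite pattern, all shPUS1 libraries lower, was seen for 2 genes (VDAC1 and PHB2), at a background of 17.3%. Some of these counts move with 1 library: shControl replicate 2 lay below all 5 others for 27 of the 44 genes (61.4%, against 32% of genes tested) and above all others for 4 (9.09%, against 34.4%). Without that library the fitted value was above 0 for 30 of the 44 genes (68.2%, against 48% of all genes). The median was 0.17 against -0.02 over all genes. The same 20 genes did not overlap in the higher direction (25.3% of all genes), and 6 did not in the lower (25.7% of all genes).

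**Figure D1:**
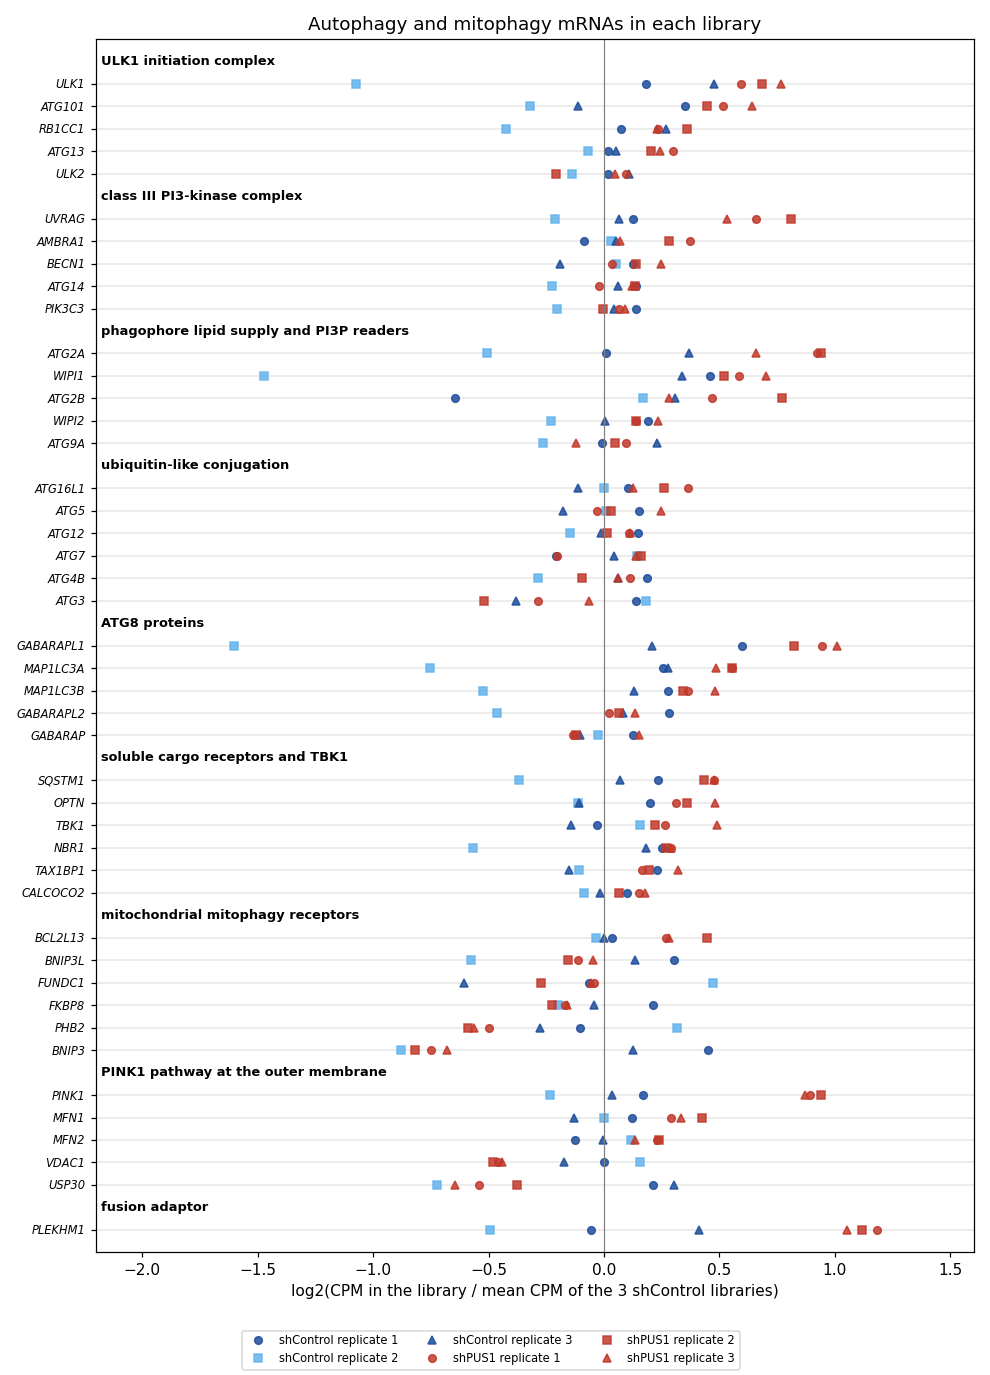
Level of each of the 44 mRNAs in each of the 6 libraries, as log2 of its CPM over the mean CPM of the 3 shControl libraries, grouped by role; blue symbols are shControl and red symbols shPUS1. The light blue squares of shControl replicate 2 lie leftmost for 27 of 44 genes, and PINK1 and PLEKHM1 show the widest separation of red from blue towards higher values.

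For the median gene, the libraries of one group differed less among these genes than over all genes tested. Single genes spread far more widely within shControl, such as GABARAPL1 at 78.9, 17.1 and 60.2 CPM. The median SD of log2 CPM among the shPUS1 libraries was 0.09, and it was 0.13 between shControl replicates 1 and 3 and 0.21 among all 3 shControl libraries. Over all genes tested the same medians were 0.12, 0.16 and 0.32. By mean FPKM, the scale per exonic length of the gene, the genes spanned from 0.54 for ULK2 to 108 for VDAC1. Their median was 12.9 FPKM, above the median of 4.61 FPKM over all genes tested.

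PINK1 (ENSG00000158828, chromosome 1, 20633458 to 20651511, plus strand) encodes the kinase that labels damaged mitochondria for removal. It was at 108, 82.0 and 99.0 CPM in shControl replicates 1 to 3 and at 179, 185 and 176 CPM in the shPUS1 replicates. All 3 shPUS1 libraries were well above all 3 controls and lay closer together than the controls did. The group means were 96.5 ± 13.4 (SD, n = 3) and 180 ± 4.54 (SD, n = 3) CPM, and the log2 fold change was 0.90 (SE 0.13, adjusted p = 0.0319). An exact two-sided permutation test over the libraries gave p = 0.1, the smallest that 3 against 3 libraries allow. With shControl replicate 2 left out, it was 0.79 (adjusted p = 0.0019). The call was kept without shControl replicate 3 (adjusted p = 0.0466) and lost without shControl replicate 1 (0.0681) or shPUS1 replicate 1, 2 or 3 (0.171, 0.222 and 0.163), while the fold change stayed between 0.79 and 0.99. With the replicate number as a block the PINK1 call was lost too. On the opposite strand, PINK1-AS overlaps 33.5% of the 100-base stretches of PINK1 transcripts, and how the counting treated strand is not stated. PINK1-AS held 1.20% to 5.49% of the summed CPM of the pair, at 2.62, 4.77 and 4.36 CPM in shControl and 2.17, 2.46 and 2.48 CPM in shPUS1. The sum of both genes was 1.82-fold higher in shPUS1.

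PLEKHM1 (ENSG00000225190, chromosome 17, 45435900 to 45490749, minus strand) encodes an adaptor that links autophagosomes and late endosomes to the lysosomal fusion machinery. Its mRNA was at 50.9, 37.6 and 70.4 CPM in shControl and at 120, 115 and 110 CPM in shPUS1. The lowest knockdown library lay above the highest control, and the controls spread more widely than for PINK1. The means were 52.9 ± 16.5 and 115 ± 5.17 CPM (SD, n = 3), the log2 fold change was 1.12 (SE 0.22, adjusted p = 0.046), and the value without shControl replicate 2 was 0.92 (adjusted p = 0.0049). The call held without shControl replicate 3 (adjusted p = 0.0445). It was lost without shControl replicate 1 (0.105), without shPUS1 replicate 1, 2 or 3 (0.222, 0.244 and 0.189), with library totals in place of TMM (0.0542) and with limma on log2(FPKM + 0.1) (0.0537). With the replicate number as a block the PLEKHM1 call was lost too. The pseudogene PLEKHM1P1 shares 7.60% of the 100-base stretches of PLEKHM1, so reads from those stretches could have been assigned to either. It held 8.09% to 15.8% of their summed CPM, and the sum was 2.03-fold higher in shPUS1.

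**Figure D2:**
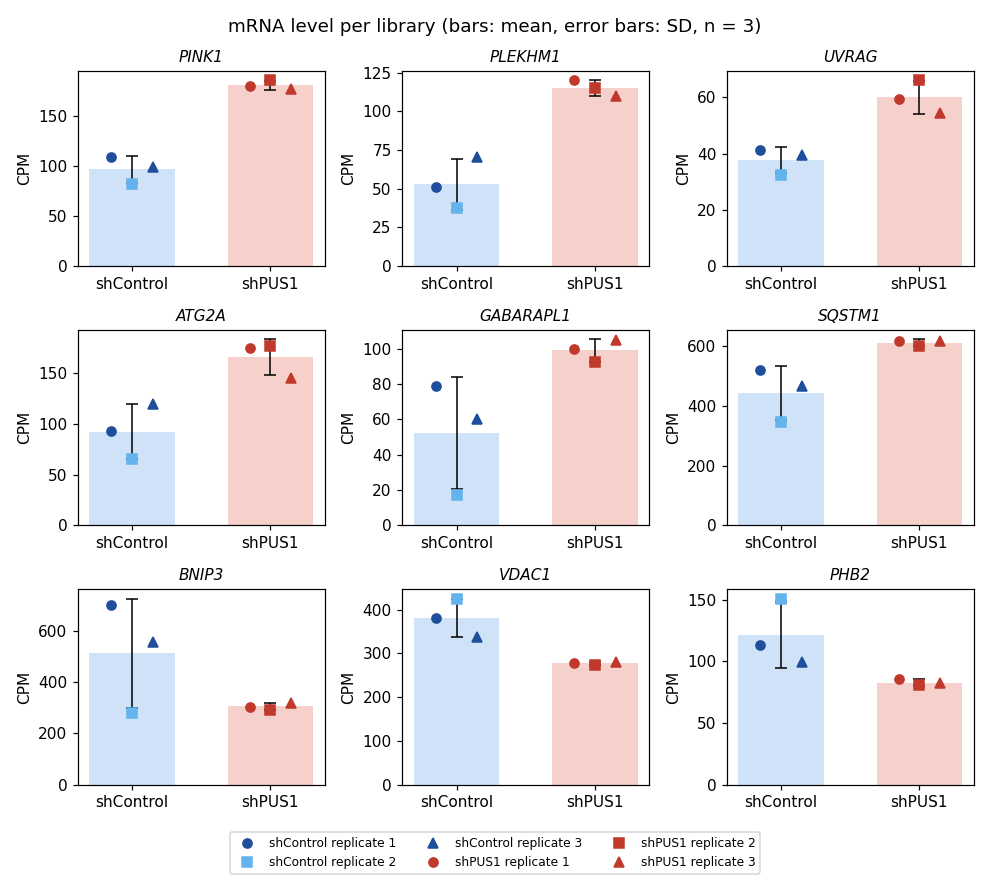
CPM of 9 of the mRNAs in each library; bars are group means, error bars the SD (n = 3) and symbols the libraries, each panel with its own linear axis from 0. PINK1 and PLEKHM1 separate by group, GABARAPL1 and BNIP3 have a wide shControl bar because shControl replicate 2 was at 17.1 and 279 CPM, and VDAC1 and PHB2 are lower in all 3 shPUS1 libraries.

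The 5 genes of the ULK1 initiation complex had 0 calls in either direction, with or without shControl replicate 2, and 1 with an unadjusted p under 0.05 (ATG101), with a median log2 fold change of 0.28. ATG101, which stabilises ATG13 in the complex, was at 49.0, 30.8 and 35.6 CPM in shControl and 55.0, 52.4 and 59.9 CPM in shPUS1. These groups did not overlap, but the gap was small beside the spread of the controls (log2 fold change 0.54, SE 0.19, adjusted p = 0.131). ATG13 itself, the regulatory subunit, was at 82.7, 77.9 and 84.6 CPM against 101, 94.0 and 96.7 CPM, again without overlap (0.25, adjusted p = 0.2). ULK1, the kinase, was at 37.9, 15.9 and 46.5 CPM in shControl and 50.5 to 56.8 CPM in shPUS1. Its log2 fold change of 0.68 (adjusted p = 0.246) became 0.34 without shControl replicate 2. The scaffold RB1CC1 and the second kinase ULK2 had overlapping groups, with log2 fold changes of 0.28 and -0.01.

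In the class III PI3-kinase complex, 0 of 5 genes were called with all libraries and 1 without shControl replicate 2. That gene was UVRAG (chromosome 11, 75815210 to 76144232), a partner of Beclin 1 in the complex that acts on endosomes and late autophagosomes. UVRAG was at 41.2, 32.6 and 39.4 CPM in shControl and at 59.5, 66.2 and 54.5 CPM in shPUS1. The groups were clearly apart, with 37.7 ± 4.55 and 60.0 ± 5.86 CPM (SD, n = 3). At 0.67 (SE 0.15), the log2 fold change missed the threshold at an adjusted p of 0.0552, and it was 0.57 without shControl replicate 2 (adjusted p = 0.0116), with a range of 0.00327 to 0.277 over the alternatives. AMBRA1, a Beclin 1 regulator, was at 24.9, 27.0 and 27.5 CPM against 34.3, 32.1 and 27.7 CPM, where the lowest knockdown library barely exceeded the highest control (0.24, adjusted p = 0.302). BECN1, ATG14 and the catalytic subunit PIK3C3 overlapped between groups, with log2 fold changes of 0.05 to 0.14.

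The 5 genes of phagophore lipid supply and PI3P reading had a median log2 fold change of 0.52, which was 0.20 without shControl replicate 2. ATG2A (chromosome 11, 64894546 to 64917211) encodes a bridge-like protein that moves lipid from the endoplasmic reticulum to the phagophore. Its mRNA was at 92.7, 65.0 and 119 CPM in shControl and 175, 177 and 146 CPM in shPUS1. The lowest knockdown library was above the highest control (0.85, SE 0.22, adjusted p = 0.0736). ATG2A passed the threshold when shControl replicate 2 (0.64, adjusted p = 0.0157) or shControl replicate 3 (1.06, adjusted p = 0.0489) was left out. With all libraries it also passed by DESeq2 (adjusted p = 0.00612), voom with sample weights (0.00371) and edgeR with no filter on low counts (0.0114). In the other alternatives it did not pass, and the adjusted p ran from 0.00371 to 0.294 over all of them. Its paralog ATG2B was at 15.6, 27.5 and 30.3 CPM against 33.8, 41.8 and 29.8 CPM, and the groups overlapped (0.52, adjusted p = 0.246). WIPI1 had widely spread controls, at 103, 27.0 and 94.5 CPM in shControl against 107 to 121 CPM in shPUS1, and its log2 fold change of 0.61 became 0.20 without shControl replicate 2. WIPI2 (0.17) and ATG9A (0.01) overlapped between groups. For ATG9A, 29.4% of the 100-base stretches also occur in the overlapping gene AC068946.2, so its level is uncertain.

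The ubiquitin-like conjugation genes had the group median nearest to 0, at 0.06. Of the 6, 0 were called by edgeR with or without shControl replicate 2, 0 had an unadjusted p under 0.05 with all libraries, and the log2 fold changes lay between -0.28 and 0.25. ATG16L1, which places the conjugation enzyme on the membrane, was at 25.5, 23.7 and 21.9 CPM in shControl and 30.5, 28.4 and 25.9 CPM in shPUS1. Its groups did not overlap, by less than 1 SD of either group (0.25, adjusted p = 0.29). ATG3, the E2-like enzyme that attaches ATG8 to lipid, was at 72.4, 74.6 and 50.5 CPM against 54.0, 46.0 and 63 CPM. It had the lowest log2 fold change of the group (-0.28, adjusted p = 0.384), and its groups overlapped. ATG5, ATG7, ATG12 and the protease ATG4B had log2 fold changes of 0.03 to 0.09.

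Of the 5 ATG8 genes, 0 were called with all libraries. GABARAPL1 (chromosome 12, 10212458 to 10223128) was at 78.9, 17.1 and 60.2 CPM in shControl and at 100, 92.2 and 105 CPM in shPUS1. The knockdown libraries were above all controls, and shControl replicate 2 was far below the other controls. The difference on the log2 scale was 0.93 (SE 0.45, adjusted p = 0.242) with all libraries, and 0.50 (SE 0.13, adjusted p = 0.0325) without that replicate, while the adjusted p over the alternatives ran from 0.0325 to 0.442. MAP1LC3B, the most used marker of autophagosomes, was at 141, 80.8 and 127 CPM against 150, 147 and 162 CPM. The groups did not overlap, and shControl replicates 1 and 3 came close to the knockdown libraries (0.40, adjusted p = 0.257, and 0.18 without shControl replicate 2). MAP1LC3A also had groups that did not overlap, at a low level (4.77 ± 1.68 and 6.90 ± 0.20 CPM), while GABARAPL2 (0.08) and GABARAP (-0.03) overlapped between groups.

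By FPKM, GABARAP was the most abundant ATG8 mRNA in all 6 libraries. It held 61.6% ± 8.40 (SD, n = 3) of the summed FPKM of the 5 genes in shControl and 52.3% ± 1.81 in shPUS1. GABARAPL1 held 11.6%, 3.50% and 10.3% in the shControl libraries and 15.7%, 14.6% and 14.4% in the shPUS1 libraries. Every knockdown share of GABARAPL1 was above every control share. MAP1LC3B came second to GABARAP in every library, at 13.3% to 18.9%. For GABARAP, 24.8% of the 100-base stretches also lie in the overlapping gene AC120057.2, so its share is uncertain.

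**Figure D3:**
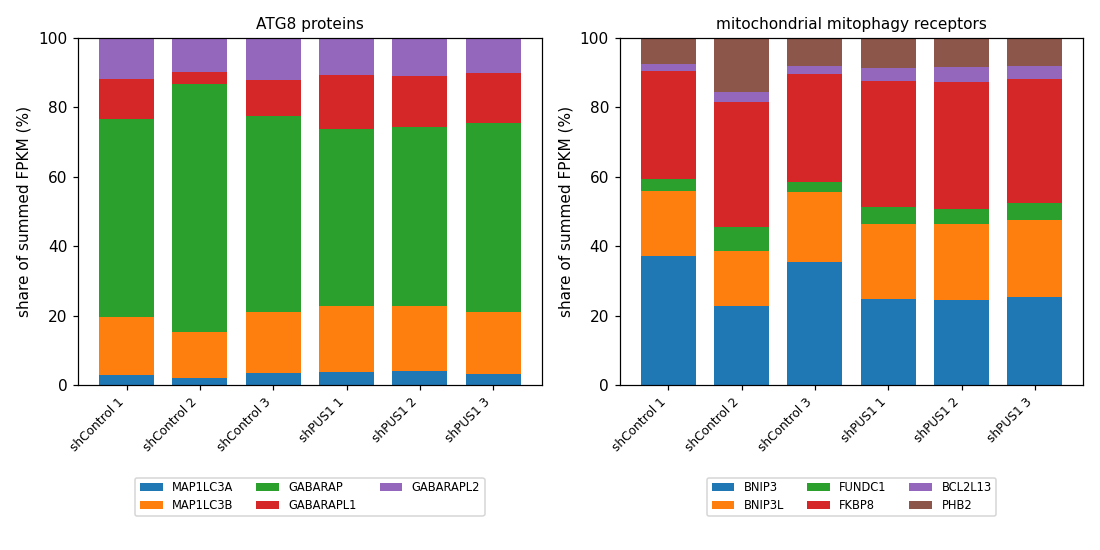
Share of the summed FPKM held by each ATG8 gene (left) and each of the 6 mitochondrial mitophagy receptor genes, PHB2 of the inner membrane included (right) in each library, in percent. GABARAPL1 is at 3.50% to 11.6% in shControl and 14.4% to 15.7% in shPUS1, and BNIP3 is at 37.1% and 35.5% in shControl replicates 1 and 3, 22.7% in shControl replicate 2 and 24.4% to 25.3% in shPUS1.

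The soluble cargo receptors, with the kinase TBK1 that phosphorylates them, had fitted values above 0 for 6 of 6 genes with and without shControl replicate 2, and the median log2 fold change was 0.31. SQSTM1 (p62, chromosome 5, 179806398 to 179838078) binds ubiquitin and ATG8 and held the largest receptor share of FPKM in all 6 libraries, at 35.6% to 40.7%. It was at 522, 345 and 466 CPM in shControl and 619, 599 and 618 CPM in shPUS1. The knockdown libraries lay within a narrow band above all controls, and the log2 fold change was 0.46 (SE 0.16, adjusted p = 0.132). The change was 0.30 without shControl replicate 2 (adjusted p = 0.0506), with a range of 0.0372 to 0.364 over the alternatives. Other genes on the opposite strand overlap 17.3% of its stretches.

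OPTN, a receptor used in PINK1-dependent mitophagy, was at 188, 151 and 151 CPM against 203, 209 and 228 CPM, without overlap (0.39, SE 0.13, adjusted p = 0.128). TBK1 was at 40.2, 45.8 and 37.1 CPM in shControl and 49.2, 47.8 and 57.6 CPM in shPUS1. Here shControl replicate 2 was the highest control, so the difference was larger without it (0.33, adjusted p = 0.196, and 0.41, adjusted p = 0.0436, with a range of 0.0436 to 0.481 over the alternatives). NBR1 did not overlap, but its controls 1 and 3, at 386 and 369 CPM, were close to the 391 to 398 CPM of shPUS1. TAX1BP1 and CALCOCO2 overlapped, with log2 fold changes of 0.23 and 0.13.

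Of the 6 mitophagy receptors of the mitochondrial membranes, 0 were called with all libraries. BCL2L13 alone had a log2 fold change above 0, PHB2 alone had groups that did not overlap in the lower direction, and the median was -0.15. Without shControl replicate 2, BNIP3, BNIP3L and PHB2 fell at an adjusted p under 0.05 and the median was -0.31. BNIP3 (chromosome 10, 131966455 to 131982013) encodes an outer-membrane receptor well known as a hypoxia-induced gene. BNIP3 was at 701, 279 and 560 CPM in shControl and at 306, 291 and 321 CPM in shPUS1. Controls 1 and 3 were far above the knockdown libraries, and shControl replicate 2 was below all of them. BNIP3 had a log2 fold change of -0.75 (SE 0.29, adjusted p = 0.167) with all libraries and -1.05 (SE 0.11, adjusted p = 0.0013) without that replicate, and the adjusted p ran from 0.000963 to 0.413 over the alternatives.

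BNIP3L (NIX), its paralog in red-cell and hypoxic mitophagy, showed the same order at a smaller scale, at 279, 152 and 248 CPM against 209, 203 and 218 CPM. With all libraries the change of BNIP3L on the log2 scale was -0.11 (adjusted p = 0.78) and it was -0.33 (adjusted p = 0.0427) without shControl replicate 2, turning to 0.072 without shControl replicate 1. PHB2 (chromosome 12, 6965327 to 6970780), an inner-membrane prohibitin that binds LC3 when the outer membrane ruptures, was at 113, 151 and 99.9 CPM in shControl and 85.9, 80.7 and 82.2 CPM in shPUS1. Its groups did not overlap, and shControl replicate 2 was here the highest library. For PHB2 it was -0.55 (SE 0.17, adjusted p = 0.101), and -0.37 without that replicate (adjusted p = 0.0325), with a range of 0.0235 to 0.345 over the alternatives. BCL2L13, the functional counterpart of yeast Atg32, was the exception at 55.0, 52.3 and 53.6 CPM against 64.7, 73.0 and 65.2 CPM. All its knockdown libraries were higher (0.33, SE 0.12, adjusted p = 0.131). FKBP8 (-0.19) and FUNDC1 (-0.12) overlapped between groups, and FUNDC1 was at 0.18 without shControl replicate 2.

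By FPKM, BNIP3 and FKBP8 were the most abundant of these 6 mRNAs. BNIP3 held 37.1%, 22.7% and 35.5% of their sum in the shControl libraries and 24.6%, 24.4% and 25.3% in the shPUS1 libraries. FKBP8 held 31.2% to 36.0% in shControl and 36.0% to 36.5% in shPUS1. On this scale BNIP3 was ahead of FKBP8 in shControl replicates 1 and 3, and FKBP8 was ahead in the other 4 libraries. That order rests on the exonic length by which FPKM divides, 5325 bases for BNIP3 and 2819 for FKBP8. By CPM, BNIP3 was above FKBP8 in every library, at 279 against 234 CPM in shControl replicate 2.

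Apart from PINK1, the outer-membrane genes of the PINK1 pathway split by direction. VDAC1 (chromosome 5, 133971871 to 134004975), the abundant channel that is ubiquitinated during mitophagy, was at 381, 425 and 339 CPM in shControl and 278, 274 and 281 CPM in shPUS1. All knockdown libraries were lower and nearly equal to each other. On the log2 scale the change was -0.46 (SE 0.12, adjusted p = 0.08). Leaving out shControl replicate 2 gave -0.38 (adjusted p = 0.024), with a range of 0.0109 to 0.318 over the alternatives. USP30, the deubiquitinase that opposes this ubiquitination, was at 17.5, 9.17 and 18.7 CPM against 10.4, 11.7 and 9.68 CPM. As for BNIP3, shControl replicate 2 was the lowest library. The log2 fold change was -0.51 (adjusted p = 0.279) with all libraries and -0.77 (adjusted p = 0.0061) without that replicate, ranging from 0.0061 to 0.502 in adjusted p over the alternatives. The mitofusins MFN1 (0.35, adjusted p = 0.128) and MFN2 (0.20, adjusted p = 0.307) were higher in all 3 shPUS1 libraries than in all 3 controls, and neither passed the threshold with or without shControl replicate 2.

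Leaving out shControl replicate 2 raised the number of calls across the whole table as well as among these genes. Without it, 6 of the 44 (13.6%) were higher, among 9.8% of all genes, and 5 (11.4%) were lower, among 8.79% of all genes. Both shares are near the background. The 6 were ATG2A, GABARAPL1, PINK1, TBK1, UVRAG and PLEKHM1, and the 5 were BNIP3, BNIP3L, PHB2, USP30 and VDAC1. All 11 had the same sign with all 6 libraries.

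**Figure D4:**
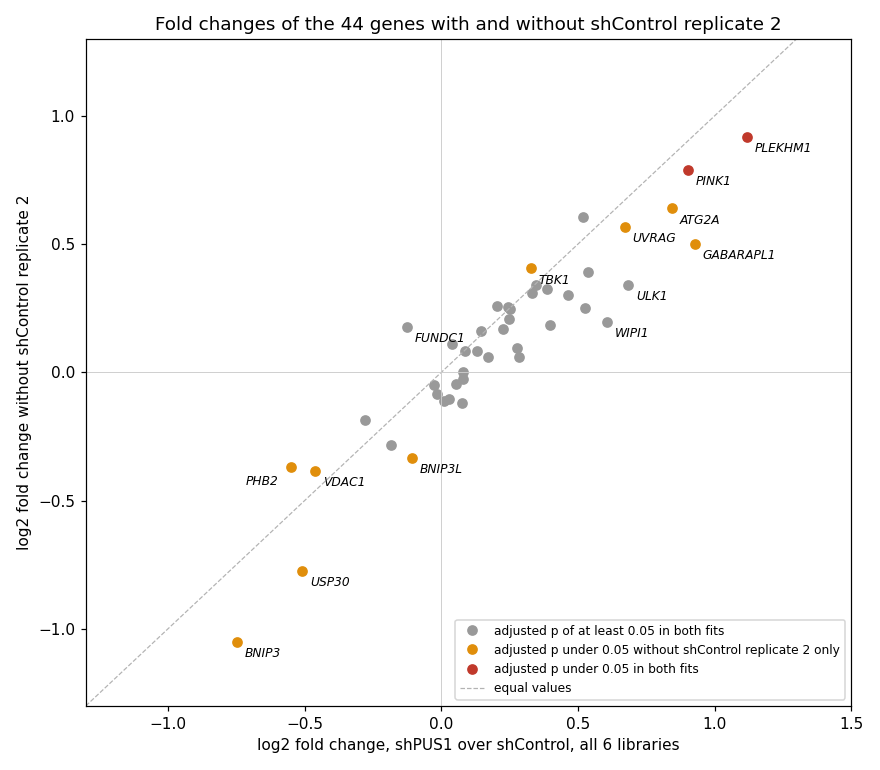
Fitted log2 fold change (shPUS1 over shControl) of each of the 44 genes with all 6 libraries (horizontal axis) and without shControl replicate 2 (vertical axis), coloured by the adjusted p in both fits. PINK1 and PLEKHM1 are called in both, 9 genes only without that library, and PINK1, PLEKHM1, ATG2A, UVRAG and GABARAPL1 lie under the line of equal values while BNIP3 and USP30 lie further below 0 without it.

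Further genes of these pathways, 89 in the table of which 85 were tested, were taken as 5 lists. Of the 85, RUBCN alone was called higher, and 0 were called lower. Over all genes tested 1.74% were called higher and 0.841% lower, so these counts are near the background. RUBCN encodes Rubicon, which binds the UVRAG form of the PI3-kinase complex and slows autophagosome maturation. It was at 44.9, 51.0 and 60.4 CPM in shControl and 111, 110 and 95.0 CPM in shPUS1, with a log2 fold change of 1.01 (SE 0.15, adjusted p = 0.0294). The call held when shControl replicate 2 or 3 was left out (adjusted p of 0.00399 and 0.0445) and was lost without shControl replicate 1 (0.0845) or shPUS1 replicate 1, 2 or 3 (0.171, 0.222 and 0.151). With the replicate number as a block the RUBCN call was lost too.

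Without shControl replicate 2, 12 of the 85 were higher and 9 lower, in a fit that called 9.8% and 8.79% of all genes, so these counts are near the background. By list this was 3 and 1 of 18 further core genes, 1 and 1 of 14 fusion genes, 4 and 4 of 22 further mitophagy genes, 1 and 1 of 10 other selective receptors and 3 and 2 of 21 regulators. The regulators described here were named after their values were seen. MITF, HIF1A and BCL2L1 were the higher ones, with log2 fold changes of 0.90, 0.48 and 0.47. DDIT4, an mTORC1 inhibitor induced by hypoxia and other stress, was among the lower ones. It was at 292, 85.7 and 264 CPM in shControl and 59.4, 58.3 and 52.2 CPM in shPUS1, with shControl replicate 2 nearest to the knockdown libraries, as for BNIP3 (-1.92, adjusted p = 0.0521 with all libraries). TFEB, the transcription factor of lysosomal and autophagy genes, was at 9.49, 3.46 and 7.97 CPM against 9.79, 7.5 and 10.4 CPM, with overlapping groups (0.41, adjusted p = 0.491).

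The promoters of 4 genes are shown because the 4 moved differently in the comparison. PLEKHM1 rose in the edgeR fit with all libraries and the filter on low counts. ATG2A and TBK1 missed the threshold in that fit and passed it without shControl replicate 2. BNIP3 was lower without that library. Each run holds the 150 bases before the RefSeq start (GRCh38.p14, 5′ to 3′ on the gene's strand). Capitals mark the E-box CACGTG, bound by TFEB and MITF family factors among others, and the hypoxia response cores ACGTG and GCGTG, all searched on both strands (CACGTG holds ACGTG on both strands, and CACGC is GCGTG on the other strand).
BNIP3, chr10:131981924-131982073, minus strand: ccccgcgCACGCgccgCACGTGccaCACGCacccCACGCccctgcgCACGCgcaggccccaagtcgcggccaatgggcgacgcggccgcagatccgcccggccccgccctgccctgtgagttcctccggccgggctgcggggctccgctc
PLEKHM1, chr17:45490722-45490871, minus strand: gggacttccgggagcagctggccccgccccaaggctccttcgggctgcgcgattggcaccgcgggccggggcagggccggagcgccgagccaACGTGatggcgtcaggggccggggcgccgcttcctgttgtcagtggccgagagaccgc
ATG2A, chr11:64917210-64917359, minus strand: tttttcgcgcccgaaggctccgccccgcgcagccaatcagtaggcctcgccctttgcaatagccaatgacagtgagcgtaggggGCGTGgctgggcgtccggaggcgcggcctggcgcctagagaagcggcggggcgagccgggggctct
TBK1, chr12:64451970-64452119, plus strand: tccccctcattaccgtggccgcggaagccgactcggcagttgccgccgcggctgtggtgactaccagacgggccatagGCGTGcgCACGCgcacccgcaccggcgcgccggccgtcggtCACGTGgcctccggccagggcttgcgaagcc

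BNIP3 and TBK1 each held an E-box in this window, and beside it BNIP3 held 4 GCGTG and TBK1 2. PLEKHM1 held 1 ACGTG and ATG2A 1 GCGTG. The same window was searched for PHB2, which was also lower without shControl replicate 2. Its 2 promoters are not shown and held 0 CACGTG, 0 ACGTG and 0 GCGTG. RefSeq promoters of 300 bases (250 before and 50 after the start) were at hand for 38 of the 44 genes, 53 promoters in all. The other genes were RB1CC1, UVRAG, MAP1LC3A, BNIP3L, FKBP8 and PINK1. Of the 53, 7.55% held CACGTG (ATG14, ATG3, BNIP3 and TBK1), against 7.26% of 35116 promoters of the same length. ACGTG was in 28.3% against 21.4%, GCGTG in 39.6% against 36.5%, and the antioxidant response core TGACNNNGC in 5.66% against 13.3%. These matches are letters in a window and say nothing of binding.

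The guides of the study's 3 PUS1 hairpins are shown because a hairpin can also pair through its seed, bases 2 to 8 in capitals, with 3′ UTRs of other mRNAs. Each is the reverse complement of the listed target, in DNA letters.
shPUS#1: tTGAATTGtgaggacccgaca
shPUS#2: tGGTTGTActtctcgaagtgc
shPUS#3: aATTGTGGaagttgtgcgtgc

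A match to the seed of shPUS#1 was found in the 3′ UTRs of 2 of the 44 genes (FUNDC1 and TBK1), of shPUS#2 in 1 (PIK3C3) and of shPUS#3 in 2 (ATG2B and OPTN). Over 12480 tested genes with a 3′ UTR the shares with a match were 8.99%, 5.12% and 7.05%. The site of TBK1 read cttgtttctaCAATTCAgtatttgatg and that of OPTN tttattgcagCCACAATaattttacca, with the match in capitals (GENCODE release 29 transcripts). The fitted log2 fold changes of these genes were -0.12 for FUNDC1, 0.33 for TBK1, 0.05 for PIK3C3, 0.52 for ATG2B and 0.39 for OPTN. The part of hairpin pairing in any of these values was not tested.

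The deposited table also carries a pathway annotation, which was not used to choose the genes. Its term Mitophagy - animal stood on 1208 rows, 898 of them tested, and 705 of those (78.5%) carried the single orthology number K17985. Of the 44 genes, 20 carried the term and 24 did not, and 5 carried K17985 (AMBRA1, CALCOCO2, SQSTM1, TBK1 and ULK2).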

How the data were processed

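Poly(A) RNA of 6 MDA-MB-231 libraries (3 shControl, 3 shPUS1) was sequenced. HISAT2 and HTSeq 0.6.1 are named in the submitters' processing notes. The genome build, annotation and strand setting are not given in the sources used here. All 44 genes overlapped their GENCODE release 29 (GRCh38) models on the same chromosome and strand, 19 with the same start and end, and coordinates are those of the deposited table. The table deposited by the authors holds estimated counts without normalization, and 29.8% to 31.8% of those above 0 are not whole. Its FPKM columns, also deposited, equal these counts divided by exonic length and library total to within 0.005.

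After rounding, the filterByExpr filter and TMM scaling, counts were tested in edgeR 4.0.16 (R 4.3.3, quasi-likelihood, prior count 2, Benjamini-Hochberg over 14748 genes), with a call at an adjusted p under 0.05. Each SE was derived from this test, as the absolute log2 fold change over the square root of the F statistic. The study's methods name DESeq2, which served as an alternative (1.42.0) beside limma 3.58.1. The test was checked on simulated data in which 200 of 14748 genes were changed. It recovered 1 of the 200 at an absolute log2 fold change of 0.5, so changes of that size were almost all missed. At an absolute log2 fold change of 1 it recovered 114. False calls numbered 0 and 6. No simulated library was made to stand apart as shControl replicate 2 did. Other steps used Python 3.11.15, pandas 2.3.3, numpy 2.4.6, matplotlib 3.10.9 and scipy 1.17.1. The labels do not say whether libraries with the same replicate number were pairs, and the test did not treat them as pairs. P-values measure only the spread between these libraries.

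The members and lists were chosen with earlier results of these data known. Values in every library were to be given for called genes, for the 2 genes of each role group with the smallest p (1 for the fusion adaptor) and for up to 3 per direction called only without shControl replicate 2. Of each other list, up to 3 called genes were to be named, with TFEB and PUS1 at their values. Some items are not reported here. TBK1, BNIP3L and the remaining genes with values in every library or range were named after their values were seen. Alternatives were DESeq2, its size factors, library totals, no filter, limma on log2(FPKM + 1) and log2(FPKM + 0.1) at a mean FPKM of at least 1, voom with sample weights, a replicate block, a fold threshold and leaving out each library.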

Additional observations from a re-analysis of the deposited data

How the results depend on the processing

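With all 6 libraries 380 genes were called in the whole table, 2 of the 44 genes higher and 0 lower. DESeq2 called 1730 genes, 980 higher and 750 lower (4 of the 44 higher and 2 lower). With no filter on low counts 1284 of 27010 genes were called, 756 higher and 528 lower (4 of the 44 higher). With voom and sample weights it was 3090 of 14748, 1692 higher and 1398 lower (6 of the 44 higher and 4 lower). For limma on log2(FPKM + 0.1) it was 250 of 11519, 134 higher and 116 lower (1 of the 44 higher). Library totals in place of TMM gave 296 of 14748, 164 higher and 132 lower (1 of the 44 higher). The calls among the 44 thus moved with those over all genes. With a log2 fold change of at least 1 required, 200 genes were called, 1 of the 44 higher. With the replicate block 18 genes were called and 0 of the 44, and the calls of PUS1 and RUBCN were lost. Whether the numbers mark pairs is not stated in the labels. Deviations of same-numbered libraries from their group means correlated at -0.05, -0.03 and -0.19. These values cannot settle it, because the shControl means include shControl replicate 2, which stood apart. Leaving out 1 library gave 0 to 2813 calls over all genes, 0 to 6 of the 44 higher and 0 to 5 lower. The most in each case came without shControl replicate 2, while without shControl replicate 1 there were 11, and without shPUS1 replicates 1, 2 and 3 there were 11, 6 and 0. DESeq2 added ATG2A and UVRAG to the higher and PHB2 and VDAC1 to the lower genes. The median log2 fold change of the 44 stayed between 0.12 and 0.25. Leaving out 1 library moved the log2 fold change of BNIP3L between -0.33 (without shControl replicate 2) and 0.072 (without shControl replicate 1).

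Of the values of the 21 genes and of RUBCN and PUS1 under 14 alternatives, 273 kept their direction and side of the threshold, 24 lost the threshold, 24 gained it and 1 changed sign. The cause of these changes was not tested. voom gave shControl replicate 2 a weight of 0.10, against 0.71 to 4.08 for the other libraries. The biological coefficient of variation was 0.22 with 3 libraries a group, so a missed threshold does not show that a gene did not differ.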
